A study of Homo sapiens and Mus musculus with 12 samples.

Results

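The mouse MHC class II gene set described here holds 10 genes, which were taken by symbol from the gene count table of sorted splenic NK cells, out of 22021 genes listed in that table. The set was H2-Aa, H2-Ab1, H2-Eb1, H2-DMa, H2-DMb1, H2-DMb2, H2-Oa, H2-Ob, Cd74 and Ciita. All 10 were listed, and all 10 passed the filter on low counts that left 13189 genes for testing. The samples were 3 libraries from WT mice (Ehmt2 flox/flox) and 3 libraries from KO mice (Ehmt2 flox/flox; Ncr1-iCre), all on a C57BL/6J background and 8 to 12 weeks old, matched for age and sex. Both groups carried the floxed Ehmt2 alleles, and only KO mice carried iCre, whose expression follows Ncr1 (NKp46, an activating receptor of NK cells and related innate lymphoid cells). Ehmt2 encodes G9a, a histone methyltransferase that places H3K9me2. A second, human experiment is used at the end, with 3 libraries of NK92MI cells treated with the EHMT2 inhibitor BIX-01294 and 3 treated with DMSO. The study profiled the mouse cells to learn how loss of Ehmt2 alters the NK cell transcriptome. The labels do not state that replicates came from separate mice, so p-values measure the spread between these libraries, which may be in part technical.

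MHC class II molecules present peptides from the endocytic pathway to CD4+ T cells. An α chain and a β chain pair in the endoplasmic reticulum with the invariant chain, which fills the groove and directs the complex to endosomes, where DM exchanges the remaining fragment for peptide and DO restrains DM. Transcription depends on CIITA, a coactivator without DNA binding of its own, which joins the RFX, NF-Y and CREB factors already bound at class II promoters. Professional antigen-presenting cells are B cells, dendritic cells and macrophages. B cells and dendritic cells carry class II constitutively, while resting mouse NK cells are not known as a main class II-bearing population.

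Library totals were 25891680 to 37438868 counts in the 6 mouse libraries. Values are given as CPM (a gene's counts scaled to a common library size) after trimmed mean of M-values (TMM) scaling, and a gene was called lower or higher in KO at an edgeR quasi-likelihood adjusted p under 0.05 with a log2 fold change beyond 0.5. The targeted gene Ehmt2 was at 275, 284 and 285 CPM in WT replicates 1, 2 and 3 and at 171, 143 and 137 CPM in KO replicates 1, 2 and 3, a log2 fold change of -0.91 (adjusted p = 0.0162), so the KO mean was 0.533 of the WT mean. Counts over the whole gene do not show whether the floxed exons were lost. By Western blot of splenic NK cells, the paper reports complete loss of Ehmt2 and less H3K9me2 in KO. The genotype field of the KO libraries names Ezh2 instead of Ehmt2, and Ezh2 was not called (log2 fold change -0.23, adjusted p = 0.116). A pair of libraries stood apart. WT replicate 2 and KO replicate 1 differed less from each other (chi-square of counts per degree of freedom 27.8) than WT replicate 2 differed from WT replicates 1 and 3 (76.8 and 53.6) or KO replicate 1 from KO replicates 2 and 3 (51.1 and 52.1).

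H2-DMb1 and H2-DMb2 are neighbouring genes for the β chain of DM, and their reads can be hard to assign. In GENCODE M21 transcripts on GRCm38, both coding sequences are 783 bases long and differ at 32 bases (95.9% identity), and 48.1% of the 50-base windows of either one occur unchanged in the other. No other pair of the class II chain genes of the set shared a 50-base window. The exon 2 sequences, on the plus strand, are the most divergent 120 bases, with the 23 differing bases in capitals. The exon 3 sequences show a stretch in which the genes do not differ. How the authors' counting treated reads that fit both genes is not given in the sources used here, so the split of counts between H2-DMb1 and H2-DMb2 is uncertain.
H2-DMb1, exon 2, chr17:34155578-34155697: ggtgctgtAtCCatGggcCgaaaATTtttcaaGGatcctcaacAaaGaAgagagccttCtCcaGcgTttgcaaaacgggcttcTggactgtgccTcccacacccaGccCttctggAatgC
H2-DMb2, exon 2, chr17:34147796-34147915: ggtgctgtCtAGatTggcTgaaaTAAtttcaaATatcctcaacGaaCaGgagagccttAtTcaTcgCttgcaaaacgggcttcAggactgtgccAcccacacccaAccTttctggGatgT
H2-DMb1, exon 3, chr17:34157299-34157418: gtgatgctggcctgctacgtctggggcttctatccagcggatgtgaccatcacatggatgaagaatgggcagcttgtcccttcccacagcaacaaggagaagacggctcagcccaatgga
H2-DMb2, exon 3, chr17:34148604-34148723: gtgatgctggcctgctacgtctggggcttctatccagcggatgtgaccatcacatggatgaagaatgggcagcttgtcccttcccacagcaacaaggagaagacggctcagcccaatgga

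All 10 class II genes had a lower mean in KO than in WT NK cells, with log2 fold changes from -1.31 to -0.92 and a median of -0.98, while the median of all tested genes was 0.01. Of the 10, 6 were called lower (H2-Eb1, H2-DMa, H2-DMb2, H2-Oa, Cd74 and Ciita), where 6.69% of all tested genes were called lower. The other four, H2-Aa, H2-Ab1, H2-DMb1 and H2-Ob, had adjusted p-values from 0.0594 to 0.0791, so they did not pass, although the 95% interval of each excluded 0. In 9 of the 10 genes every KO library was below every WT library, against 19.3% of all tested genes. The summed level of the 10 genes was 13446, 11211 and 14084 CPM in WT and 9530, 5116 and 4924 CPM in KO replicates 1 to 3, so that the KO mean was 0.505 of the WT mean. KO replicate 1 was the highest KO library for every gene, and in every gene but H2-DMb1 it lay between the WT libraries and the other two KO libraries. In the raw counts the set took 1.12% to 1.41% of all counts in WT and 0.493% to 0.963% in KO. These are bulk samples, in which fewer cells of a class II-bearing type and less class II RNA per cell cannot be told apart.

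The count of called class II genes depended on single libraries. It was 10 without KO replicate 1 and 9 without WT replicate 2, and it was 0 without any one of WT replicate 1, WT replicate 3, KO replicate 2 or KO replicate 3, where at most 99 genes of the whole table were called. Without both libraries that stood apart (an alternative chosen after seeing the data), all 10 were called and the median was -1.48. The 10 log2 fold changes stayed below 0 in every one of these fits. DESeq2 called 8 of the 10 lower, against 12.0% of the genes it tested, and left H2-Ab1 and H2-DMb1 uncalled.

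**Figure D1:**
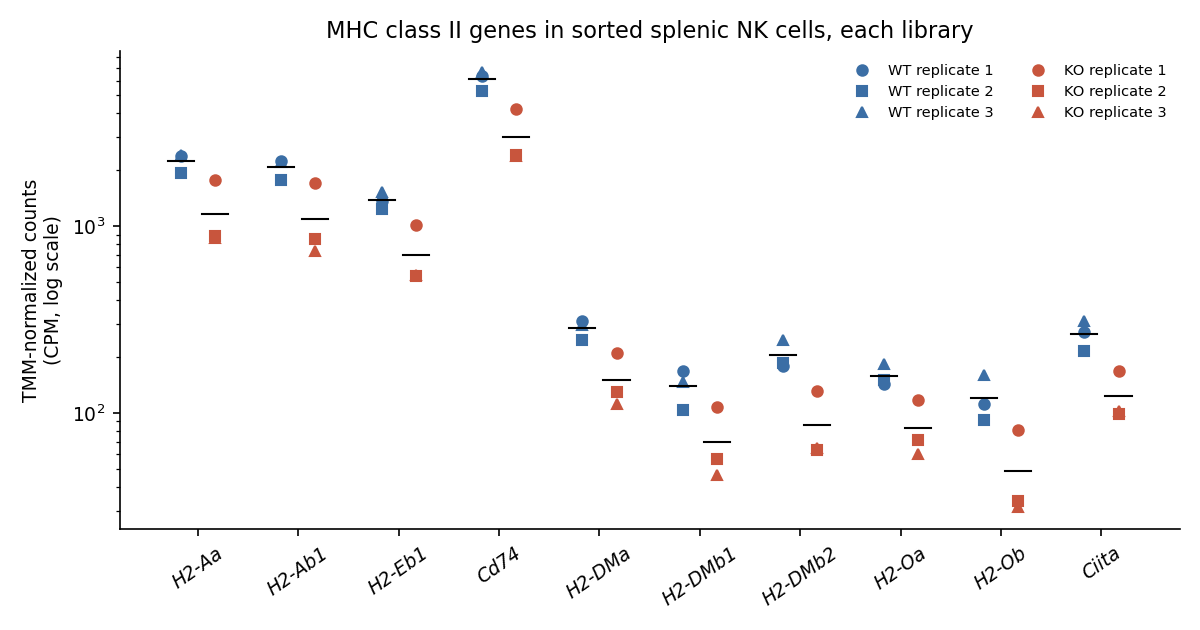
TMM-normalized CPM (log scale) of the 10 class II genes in each of the 3 WT (blue) and 3 KO (red) libraries, with the group mean as a black line. KO libraries lie below all WT libraries in every gene but H2-DMb1, and KO replicate 1 is the highest KO library throughout.

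The classical chains were the most abundant members after Cd74. H2-Aa, the α chain of I-A (chr17:34282744-34287823, minus strand), was at 2356, 1923 and 2401 CPM in WT replicates 1 to 3 and at 1753, 880 and 860 CPM in KO replicates 1 to 3. Its means were 2227 ± 264 CPM (SD, n = 3) in WT and 1165 ± 510 CPM (n = 3) in KO, with a log2 fold change of -0.94 (SE 0.28, adjusted p = 0.0634). All KO libraries were lower than all WT libraries, but the change did not pass the adjusted threshold.

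H2-Ab1, the β chain of I-A (chr17:34257689-34269419, plus strand), was at 2237, 1763 and 2197 CPM in WT and 1700, 848 and 735 CPM in KO. Its log2 fold change of -0.92 (SE 0.31) was not called either (adjusted p = 0.0791). KO replicate 1, at 1700 CPM, came close to WT replicate 2, at 1763 CPM. The ratio of H2-Aa to H2-Ab1 ranged only from 1.03 to 1.17 over the 6 libraries, so the proportion of the I-A chains was nearly the same in WT and KO.

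H2-Eb1, the β chain of I-E (chr17:34305867-34316674, plus strand), was called lower. It was at 1353, 1239 and 1517 CPM in WT and at 1017, 538 and 548 CPM in KO, with means of 1370 ± 140 and 701 ± 274 CPM (SD, n = 3 each) and a log2 fold change of -0.97 (SE 0.25, adjusted p = 0.0481). The C57BL/6 background lacks a functional gene for the α chain of I-E, and neither H2-Ea nor H2-Ea-ps is listed in the table. H2-Eb2, a β chain paralog outside the set, was also called lower (47.3, 40.4 and 47.8 CPM in WT, 33.2, 17.3 and 20.7 CPM in KO, log2 fold change -0.93, adjusted p = 0.0453).

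Cd74, the invariant chain (chr18:60803848-60812652, plus strand), was the most abundant gene of the set and was called lower. It was at 6319, 5299 and 6626 CPM in WT and at 4246, 2395 and 2364 CPM in KO, with means of 6081 ± 695 and 3002 ± 1078 CPM (SD, n = 3 each) and a log2 fold change of -1.02 (SE 0.25, adjusted p = 0.0452). The lowest WT library was above the highest KO library. Cd74 held 44.6% to 48.0% of the summed CPM of the set in every library, so its share hardly moved while the sum was lower in KO.

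Both DM chains, the peptide exchange factor of the endosome, had lower means in KO. H2-DMa (chr17:34119541-34139101, plus strand) was at 309, 245 and 297 CPM in WT and at 209, 130 and 112 CPM in KO, and was called lower (log2 fold change -0.92, SE 0.23, adjusted p = 0.0454). H2-DMb2 (chr17:34143307-34151555, plus strand) was at 179, 184 and 247 CPM in WT and at 131, 63.7 and 64.8 CPM in KO, and was called lower with a log2 fold change of -1.24 (SE 0.29, adjusted p = 0.0419). In neither gene did the groups overlap.

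H2-DMb1 (chr17:34153072-34160230, plus strand) was the exception in the order of libraries. It was at 168, 103 and 146 CPM in WT and at 108, 56.6 and 46.6 CPM in KO, so that KO replicate 1 was above WT replicate 2, and its log2 fold change of -0.99 (SE 0.32) was not called (adjusted p = 0.0730). The ratio of H2-DMb1 to H2-DMb2 was 0.940, 0.559 and 0.593 in WT and 0.823, 0.888 and 0.718 in KO, with no separation of the groups. Since the exon 3 stretch printed above is identical in both genes, their counts were also summed before fitting, as an alternative added after seeing the data. The sum was 347, 288 and 393 CPM in WT and 238, 120 and 111 CPM in KO, without overlap, and was called lower (log2 fold change -1.13, SE 0.29, adjusted p = 0.0473).

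The DO chains form the inhibitor of DM and are known mainly from B cells. H2-Oa (chr17:34092340-34095234, plus strand) was at 143, 150 and 182 CPM in WT and at 117, 71.6 and 60.0 CPM in KO, and was called lower (log2 fold change -0.93, SE 0.24, adjusted p = 0.0473). H2-Ob (chr17:34238903-34254414, plus strand) was at 111, 91.6 and 159 CPM in WT and at 80.8, 33.9 and 31.2 CPM in KO. Its log2 fold change of -1.31 was the most negative of the set, but it had the largest standard error (0.38) and was not called (adjusted p = 0.0594). The groups overlapped for neither chain. The ratio of H2-Oa to H2-Ob was 1.29, 1.63 and 1.15 in WT and 1.45, 2.12 and 1.92 in KO.

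Ciita, the coactivator (chr16:10480059-10528418, plus strand), had the smallest adjusted p of the set. It was at 270, 214 and 311 CPM in WT and at 168, 99.2 and 102 CPM in KO, with means of 265 ± 48.7 and 123 ± 39.0 CPM (SD, n = 3 each) and a log2 fold change of -1.10 (SE 0.23, adjusted p = 0.0350). All KO libraries were below all WT libraries. The ratio of Cd74 to Ciita ranged from 21.3 to 25.2 over the 6 libraries, with the groups overlapping, so regulator and invariant chain kept nearly the same proportion.

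The sizes of the changes did not separate the members. Every one of the 10 log2 fold changes lay within the 95% interval of every other gene, since the highest lower bound was -1.44 (H2-DMa) and the lowest upper bound -0.58 (Ciita). Over the 6 libraries, log2 CPM of the 45 gene pairs had Pearson correlations of 0.927 to 0.997 with a median of 0.984, given as a description since all pairs share the same libraries and the same split by genotype. The lowest was between H2-DMb1 and H2-DMb2 and the highest between H2-Eb1 and Cd74.

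Levels were compared between genes as CPM per kilobase of annotated exon in WT. Cd74 came first at 3622 CPM per kilobase, above H2-Ab1 (804), H2-Eb1 (705) and H2-Aa (586). The nonclassical chains followed with H2-DMb2 (116), H2-Oa (112), H2-DMb1 (82.8) and H2-DMa (82.3), and Ciita (27.8) and H2-Ob (22.4) were lowest. The WT libraries overlapped between the neighbours H2-Ab1 and H2-Eb1, H2-DMb2 and H2-Oa, H2-DMb1 and H2-DMa, and Ciita and H2-Ob, while the other steps in the order did not overlap. Some exons are shared with other annotated genes: 360 bases of H2-DMa with Brd2 on the other strand (10.4% of its exon bases), 321 bases of H2-Oa with an antisense transcript (22.8%), 329 bases of Ciita with Dexi (3.45%) and 12 bases of Cd74 with a microRNA (0.715%). Whether counting used strand is not given, so reads there cannot be told apart. Brd2 (log2 fold change 0.13, adjusted p = 0.287) and Dexi (0.10, adjusted p = 0.496) were not called.

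Of the set, 8 genes lie on chromosome 17, at 582 to 803 kb from the start of Ehmt2 on the same chromosome, and the levels of the genes around them were compared for that reason. Between H2-Oa and H2-Eb1, 6 further genes were tested, and 0 were called by edgeR, DESeq2 or limma-voom. Only Tap2 had an unadjusted p under 0.05 in edgeR (adjusted p = 0.0485), and it was not called because its change was under the fold threshold. Psmb8 (0.13) and Psmb9 (0.02), which encode immunoproteasome subunits, Tap1 (0.15) and Tap2 (0.28), which encode the peptide transporter of class I loading, and Brd2 (0.13) had log2 fold changes above 0, and Gm15821, with 0 to 17 counts a library, was at -1.47 (adjusted p = 0.218). The class II genes and the class I loading genes interleaved in this stretch thus had log2 fold changes of opposite sign with TMM scaling, but not with pan-NK scaling, where Tap1, Tap2, Psmb8, Psmb9 and Brd2 were at -0.86 to -0.59 beside an all-gene median of -0.86 and were called lower. The difference between the class II and the class I loading genes was not tested, and pan-NK scaling called 9708 of 13189 tested genes lower. Pan-NK scaling takes its scale from 11 NK marker genes, and 6 of these were called higher in KO with TMM scaling. They include Prf1, Il2rb and Tbx21, whose mRNA the paper reports as higher in KO by RT-qPCR. Which scaling is nearer to levels per cell was not tested. Within 500 kb of Ehmt2, 53 genes were tested with a median log2 fold change of -0.07. Of these, 2 were called lower, Btnl4 (-2.62, 2 to 65 counts a library) and Ly6g6f (-0.76), and H2-Q4 (0.51) was called higher. Over all tested genes, 6.69% were called lower and 2.82% higher. Ciita and Cd74, on chromosomes 16 and 18, had log2 fold changes within the range of the members on chromosome 17.

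**Figure D2:**
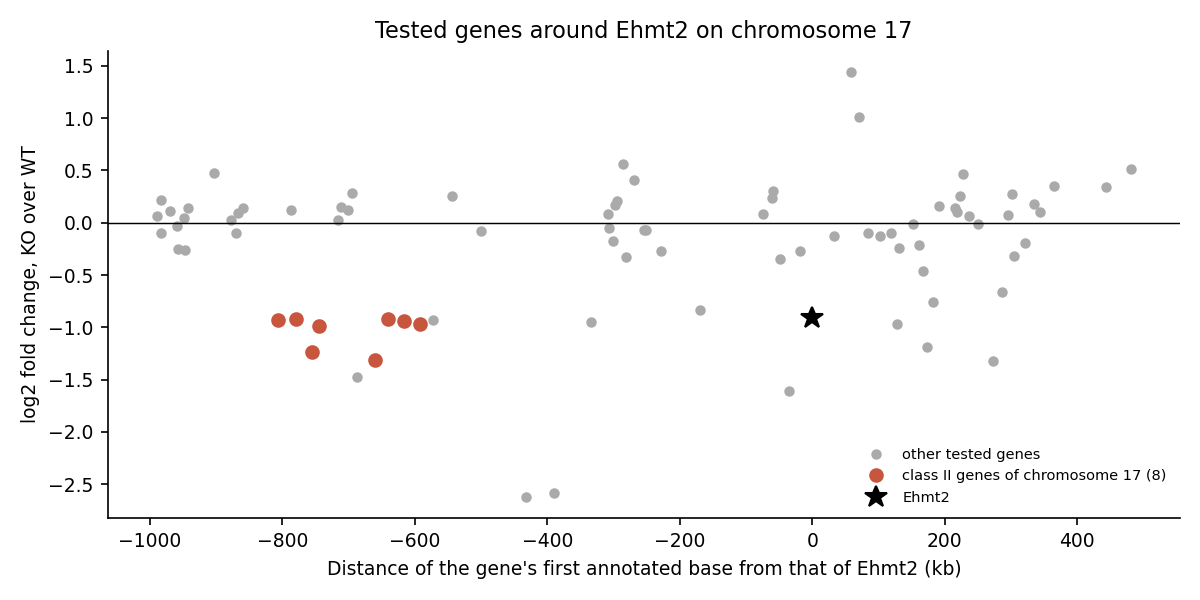
Log2 fold change, KO over WT, of the tested genes in the region of chromosome 17 around Ehmt2 and the class II genes, against the distance of its first annotated base from that of Ehmt2 (kb), with the 8 class II genes in red and Ehmt2 as a star. The class II genes form a group between -1.31 and -0.92, and most other genes of the region lie near 0.

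None of the factors that act with CIITA at class II promoters was called. Of 11 tested genes (the RFX subunits, the NF-Y subunits, Creb1, Zxdc and the acetyltransferases Crebbp, Ep300 and Kat2b), 0 were called in either direction by edgeR, DESeq2 or limma-voom, 1 had a lower and 3 a higher level at an unadjusted p under 0.05, and the median log2 fold change was 0.17. Rfx5, the DNA-binding subunit of RFX, was the single gene with a lower level. It was at 63.6, 61.5 and 61.4 CPM in WT and at 49.3, 51.3 and 48.0 CPM in KO, a log2 fold change of -0.33 (adjusted p = 0.0413), which is under the size required for a call. The groups were clearly apart, with little spread within each. When libraries were scaled on pan-NK genes instead, 9 of the 11 were called lower, as were 9708 of 13189 tested genes. The median of the 11 was then -0.71 and the median of all genes -0.86. Relative to all genes, the median of these factors thus lay above 0 and that of the class II genes (-1.85) below it.

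**Figure D3:**
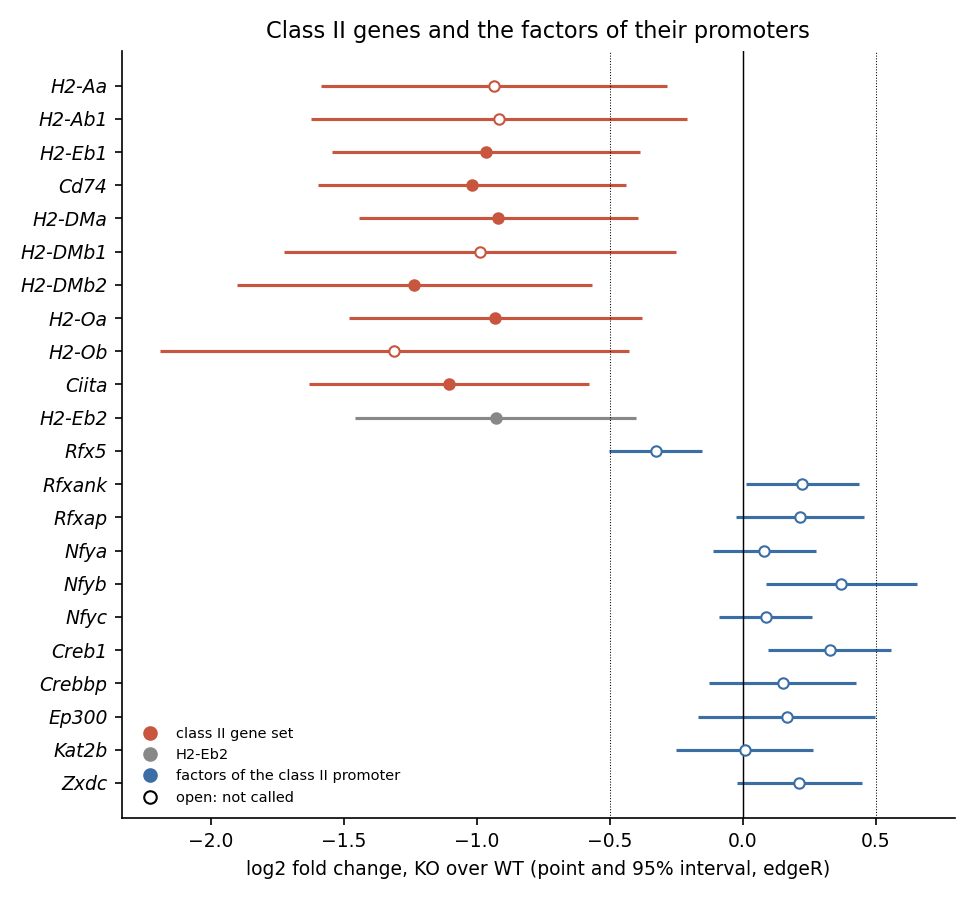
Log2 fold change, KO over WT, with the 95% interval from edgeR (n = 3 libraries a group), for the 10 class II genes (red), H2-Eb2 (grey) and 11 factors of the class II promoter (blue), where filled points were called and dotted lines mark the fold threshold of 0.5. All 10 class II intervals lie below 0, while Rfx5 alone of the factors has a point below 0.

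Of 12 genes that act upstream of Ciita, 1 was called lower and 2 were called higher, against 6.69% and 2.82% of all tested genes. Spi1 (PU.1), a factor of the myeloid and B cell lineages, was at 518, 373 and 565 CPM in WT and at 335, 217 and 202 CPM in KO (log2 fold change -0.95, adjusted p = 0.0433). Irf1, an interferon-induced activator, was at 229, 273 and 240 CPM in WT and at 379, 366 and 327 CPM in KO, a log2 fold change of 0.53 (adjusted p = 0.0324) that became -0.32 with pan-NK scaling. Socs1, which restrains interferon signalling, was at 25.1, 29.8 and 24.2 CPM in WT and at 57.4, 54.7 and 40.6 CPM in KO (0.95, adjusted p = 0.0269), and 0.11 (adjusted p = 0.705) with pan-NK scaling. Groups did not overlap in any of these genes. Of the chains of the interferon γ receptor, Ifngr1 was not called (0.09, adjusted p = 0.574), and neither was Ifngr2, at 87.5, 63.0 and 95.6 CPM in WT and 66.3, 31.6 and 33.4 CPM in KO (-0.91, adjusted p = 0.0760). Irf4 (-1.06, adjusted p = 0.0647), Irf8 (-0.41, adjusted p = 0.0856) and Jak2 (-0.31, adjusted p = 0.0510) also had an unadjusted p under 0.05 without being called. In either direction, DESeq2 called 5 genes of this list, where 1669 genes of the table were called lower and 570 higher. Pan-NK scaling called 9, where 9708 of 13189 tested genes were called lower and 33 higher.

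Of 12 tested genes of antigen processing for class II, 11 had a lower mean in KO, with a median of -0.91. Called lower were 4 and called higher 0, against 6.69% and 2.82% of all tested genes. DESeq2 called 9 (12.0% of its tested genes were called lower) and pan-NK scaling 12 (9708 of 13189 tested genes were called lower). A fit without the filter on low counts gave 6, and the fit without WT replicate 2 gave 9, where 1046 and 1835 genes of the table were called lower. Lgmn, an asparaginyl endopeptidase of endosomes, was at 380, 119 and 273 CPM in WT and at 99.02, 51.1 and 73.3 CPM in KO (log2 fold change -1.79, adjusted p = 0.0413). Ctsl (cathepsin L) had a log2 fold change of -1.22 (adjusted p = 0.0436), Ifi30 (the lysosomal thiol reductase GILT) one of -1.07 (adjusted p = 0.0349), and Cd83, which stabilizes class II at the surface, one of -0.95 (adjusted p = 0.0467). Ctss, the cathepsin that trims the invariant chain, was at 497, 297 and 430 CPM in WT and at 309, 171 and 196 CPM in KO and was not called (-0.86, adjusted p = 0.0643).

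The class I pathway had the other sign. All 15 tested genes had a higher mean in KO with TMM scaling, and 4 of them were called higher, against 2.82% of all tested genes. Their median log2 fold change of 0.27 became -0.60 with pan-NK scaling. Nlrc5, the coactivator that serves class I as CIITA serves class II, was at 149, 169 and 151 CPM in WT and at 187, 280 and 232 CPM in KO (log2 fold change 0.58, adjusted p = 0.0472), where Ciita was lower in the same libraries. H2-Q4 (0.51), H2-Q6 (0.60) and H2-Q7 (0.63), nonclassical class I genes of close sequence whose reads may be shared, were the others. Each of these 4 was below 0 and uncalled with pan-NK scaling (-0.33 to -0.21). In that scaling the median of all tested genes was lower still, at -0.86. H2-K1 (0.47, adjusted p = 0.0499), H2-D1 (0.35) and B2m (0.15) were not called, H2-K1 because its change was under the fold threshold. The difference between the class I and class II genes was not tested as such. In the lists of promoter factors, upstream genes, processing and class I, no gene was called without KO replicate 2, without KO replicate 3, without WT replicate 1 or without WT replicate 3.

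Most markers of class II-bearing cell types had a lower mean in KO as well, and their part in the result was not tested. Of 12 B cell markers, 11 had a lower mean in KO, with a median of -2.18. Only 1 was called lower (Fcrla, log2 fold change -2.12), where 6.69% of all tested genes were called lower. Their summed level was 739 to 1845 CPM in WT and 245 to 701 CPM in KO, and none was at 0. Ms4a1, which encodes the B cell surface protein CD20, was at 64.4, 43.8 and 132 CPM in WT and at 37.3, 2.86 and 4.03 CPM in KO (adjusted p = 0.109, not called). In KO replicates 2 and 3, where Ms4a1 was lowest, the class II genes summed to 5116 and 4924 CPM, and no part of these sums was assigned to a cell type. The class II sum was 7.63 to 15.2 times the B cell marker sum in WT and 13.6 to 20.1 times in KO. This ratio depends on Cd72, the only marker of the list with a higher mean in KO. Cd72 was at 106, 131 and 130 CPM in WT and at 141, 155 and 141 CPM in KO. In KO replicates 2 and 3, where the list summed to 276 and 245 CPM, it made up much of the sum, and the ratio would be higher without it.

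Of 15 macrophage and monocyte markers, 13 had a lower mean in KO. Of the 15, 7 were called lower (among them Adgre1, Cd68, Csf1r, Vcam1, Mrc1 and Spic) and 1 higher (Ly6c2), against 6.69% and 2.82% of all tested genes. Their summed level was 3236 to 7907 CPM in WT and 2082 to 3357 CPM in KO, with none at 0. The overlap was between WT replicate 2 and KO replicate 1. Ly6c2 and Ccr2, the only markers of the list with a higher mean in KO, were at 183 and 308 CPM in WT replicate 2. In KO replicate 1 they were at 365 and 324 CPM, an excess larger than that of the whole sum. Csf1r, the receptor that macrophages need for survival, was at 1285, 521 and 856 CPM in WT and at 432, 321 and 398 CPM in KO. The class II sum was 1.70 to 3.46 times the sum of this list in WT and 1.83 to 2.84 times in KO. WT replicate 2 was the lowest WT library for this list, as it was for the class II sum.

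Of 12 dendritic cell markers, 10 had a lower mean in KO, with none at 0. Those called lower were 2 (Clec9a, -1.17, and Siglech, -1.30), against 6.69% of all tested genes. The summed level of this list overlapped between groups, at 1293 to 1591 CPM in WT and 1312 to 1526 CPM in KO, but Itgax, which NK cells also carry, made up much of the sum (637 to 1034 CPM in WT, 830 to 1169 CPM in KO). Without Itgax (an alternative chosen after seeing the data), the other 11 genes summed to 905, 556 and 613 CPM in WT and to 481, 357 and 285 CPM in KO, with no overlap and a KO mean of 0.542 of the WT mean. The class II sum was 14.9 to 22.99 times this sum in WT and 14.3 to 19.8 times in KO. Ly75, the other marker of the list with a higher mean in KO (31.3 CPM in WT and 36.2 CPM in KO), stayed in it. The B cell and the macrophage and monocyte sums kept all their markers, so the ratios of the lists are not alike in this respect. Xcr1, a receptor of cross-presenting dendritic cells, was at 7.34, 1.71 and 8.33 CPM in WT and at 1.63, 0.323 and 0.329 CPM in KO (adjusted p = 0.0501, not called), which was 12 counts in each of KO replicates 2 and 3.

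Other lists served as a wider check, beside 6.69% of all tested genes called lower and 2.82% called higher. All 7 erythroid markers were called lower (median -2.45, summed level 218 to 359 CPM in WT and 99.2 to 132 CPM in KO). Of 7 tested neutrophil markers, 2 were called lower (Mpo and Ltf), their sum was 67.3 to 740 CPM in WT and 1.78 to 79.4 CPM in KO, and Ly6g, Elane, Camp and Retnlg were at 0 in at least 1 library. Of 8 T cell markers, 0 were called lower by edgeR (1 at an unadjusted p under 0.05) and Cd3g was called higher, with 2 calls in all by DESeq2, and the sums were 155 to 260 CPM in WT and 97.5 to 219 CPM in KO. None of the 7 ILC1 markers was called by edgeR, DESeq2 or limma-voom, 1 having an unadjusted p under 0.05 in edgeR. The labelled cell type was present in all libraries, since the 11 listed pan-NK genes summed to 4452, 7695 and 4634 CPM in WT and 8104, 10194 and 10135 CPM in KO, and 6 of them were called higher with TMM scaling. WT replicate 2 and KO replicate 1 were thus the highest WT and the lowest KO library by pan-NK sum, and also the lowest WT and the highest KO library by class II sum.

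The counts of called markers, here in either direction, also moved with the tool and the scaling. So did the calls over all genes. Pan-NK scaling called 9708 of 13189 tested genes lower and 33 higher. DESeq2 called 12.0% of its tested genes lower (1669 genes) and 570 genes higher, and limma-voom called 787 genes lower and 412 higher. B cell markers called were 5 with limma-voom and 12 with pan-NK scaling, dendritic cell markers 7 with DESeq2, 4 with limma-voom and 11 with pan-NK scaling, and macrophage and monocyte markers 14 with DESeq2, 4 with limma-voom and 13 with pan-NK scaling. The counts rested on single libraries too. Without KO replicate 1, 11 B cell and 7 dendritic cell markers were called, and without WT replicate 2, 14 macrophage and monocyte markers and 8 dendritic cell markers. Without any one of WT replicate 1, WT replicate 3, KO replicate 2 or KO replicate 3, no marker of these lists was called, apart from 3 erythroid markers without WT replicate 1.

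**Figure D4:**
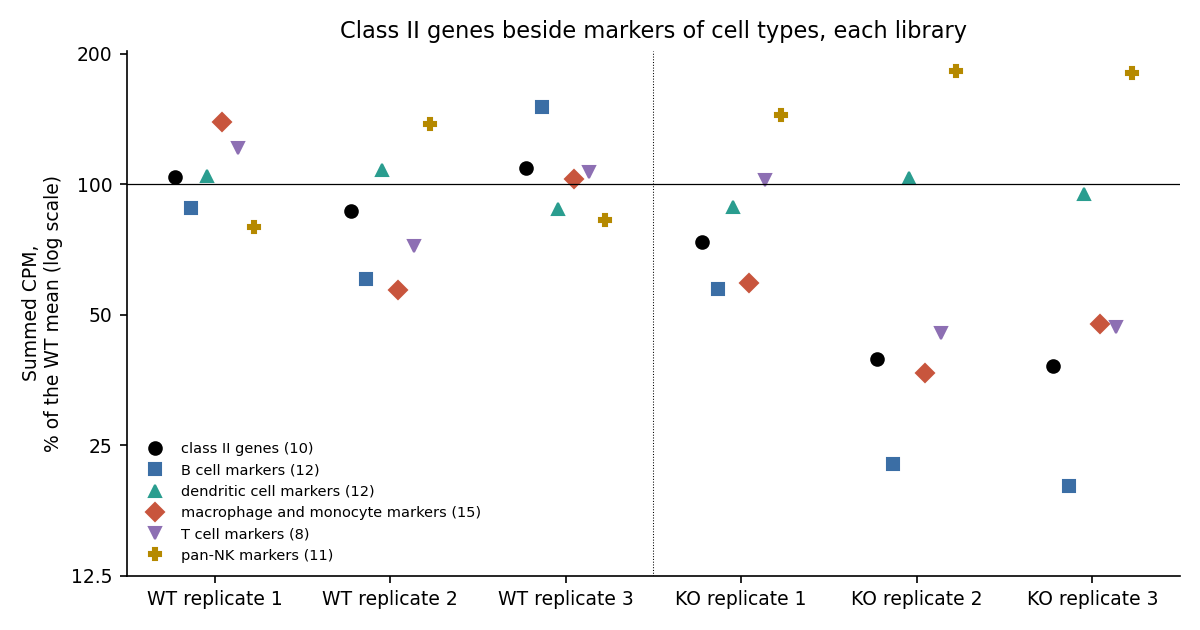
Summed CPM of the 10 class II genes and of 5 marker lists in each library, as a percentage of the WT mean of the same list (log scale, with the number of genes in parentheses). Every KO library is below every WT library for the class II and B cell sums, and above for the pan-NK sum. Macrophage and monocyte sums, which include Ly6c2 and Ccr2 with higher means in KO, overlap between WT replicate 2 and KO replicate 1. Dendritic cell sums, much of which are Itgax, stay near the WT mean (without Itgax the KO mean is 0.542 of the WT mean).

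The genes outside the set whose log2 CPM followed the mean class II profile most closely over the 6 libraries were Dpp4, Cpt1c, Ncf1, Dna2, Il5ra, Chchd10, Fn1, Rasal1, Bcl2l14 and Plekho1, with Pearson correlations of 0.9948 to 0.9998. Dpp4, which encodes the surface peptidase CD26, was the closest. It was at 98.4, 83.1 and 108 CPM in WT and at 72.6, 41.7 and 39.5 CPM in KO, and was called lower (log2 fold change -0.92, adjusted p = 0.0473). Il5ra and Plekho1 were called lower too, whereas the other seven were not. Of 13179 genes compared in this way, 42 had a correlation above 0.99 and 425 above 0.95, and with 6 libraries split by genotype such values are a description of order and spacing only.

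The human counterpart was the same gene family in NK92MI, a human NK lymphoma line made independent of added interleukin 2, treated with the EHMT2 inhibitor BIX-01294 or with DMSO (3 libraries each, 16579469 to 17165446 counts). Of 12 listed genes (HLA-D genes, CD74 and CIITA), 10 were tested, 7 were called higher with BIX-01294 and 0 lower, where 7.57% of all tested genes were called higher. The median log2 fold change of the 10 was 1.20, against -0.01 for all genes. Levels were low beside the mouse cells except for CIITA, whose 102 to 118 CPM overlapped the 99.2 to 168 CPM of Ciita in mouse KO. Mouse and human libraries were fitted apart, so such comparisons of CPM are rough. DMSO libraries are given in the order of the table.

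HLA-DQB1, a classical β chain, rose from 27.7, 27.2 and 24.9 CPM with DMSO to 66.3, 58.4 and 71.8 CPM with BIX-01294 (log2 fold change 1.30, adjusted p = 2.97e-07). CD74 was the most abundant and had the smallest called change, from 166, 196 and 184 CPM to 286, 244 and 290 CPM (0.59, adjusted p = 8.47e-05). HLA-DQA1 (2.82), HLA-DRB1 (2.26), HLA-DRB5 (1.84) and HLA-DMA (1.09) were also called higher, all with means under 15 CPM, and the groups did not overlap in any of them. HLA-DOB, with 1, 11 and 7 counts in DMSO and 16, 20 and 15 counts in BIX-01294 libraries, was called at an adjusted p of 0.0435 on very few counts.

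CIITA was not called. It was at 118, 113 and 110 CPM with DMSO and at 102, 116 and 107 CPM with BIX-01294, a log2 fold change of -0.07 with a 95% interval of -0.22 to 0.07 (adjusted p = 0.442). HLA-DPA1 (0.27) and HLA-DMB (-0.38) were not called, and HLA-DRA and HLA-DPB1 were too low to test, with 0 to 2 and 2 to 9 counts a library. HLA genes are close in sequence and vary between people, so reads may have been shared among them. The mouse knockout and the human inhibitor differ in species, cell source and means of losing EHMT2 activity, and their effects were not tested against each other.

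**Figure D5:**
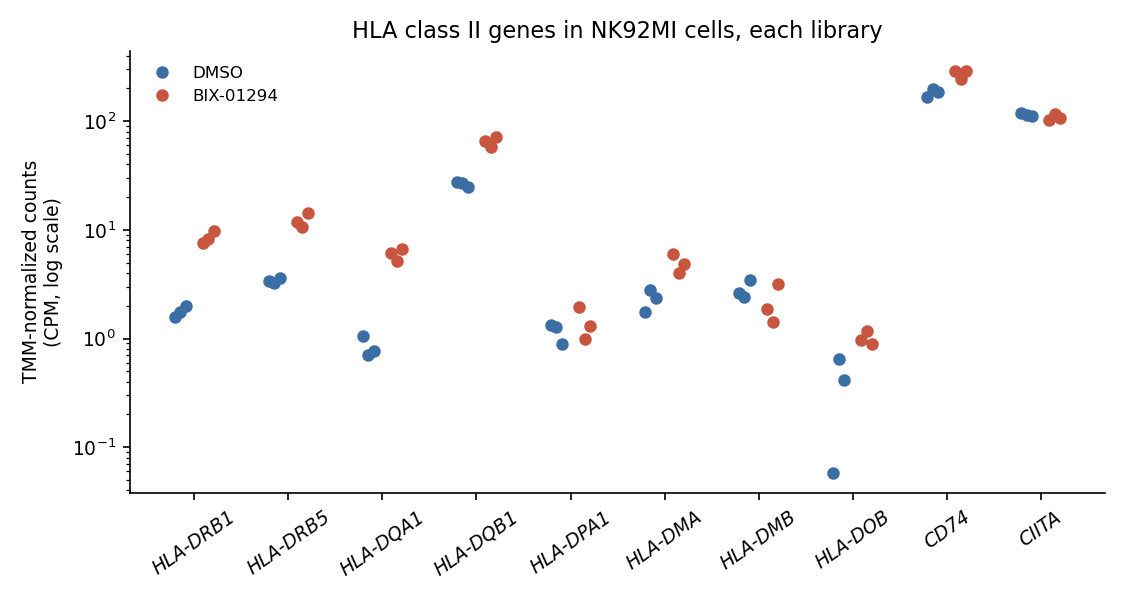
TMM-normalized CPM (log scale) of the 10 tested HLA class II genes in NK92MI cells, each point being 1 of 3 DMSO (blue) or 3 BIX-01294 (red) libraries. The groups are apart for HLA-DRB1, HLA-DRB5, HLA-DQA1, HLA-DQB1, HLA-DMA, HLA-DOB and CD74, and they overlap for CIITA, HLA-DPA1 and HLA-DMB.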

How the data were processed

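Splenic NK cells of WT and KO mice and NK92MI cells were profiled by polyA RNA-seq. The authors trimmed reads with fastp 0.23.4, aligned mouse reads to GRCm38/mm10 and human reads to GRCh38/hg38 with STAR 2.7.11b, and obtained gene counts from HTSeq 2.0.3. The annotation release and strand setting are not given in the sources used here. The deposited values are raw counts per gene, and totals were 16579469 to 37438868 a library, which limits precision for genes of a few counts.

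Groups followed the sample titles, since the genotype field of the KO libraries names another gene. The human control columns could be assigned to the DMSO group but not to single samples. Genes were filtered with filterByExpr and tested with edgeR 4.0.16 (TMM, quasi-likelihood, Benjamini-Hochberg over all tested genes) in R 4.3.3, fitted on the 3 + 3 libraries of each species. Genes with an adjusted p under 0.05 were called if their log2 fold change was also beyond 0.5. At the study's own adjusted p of 0.01, edgeR called 0 mouse genes lower and 0 higher (2639 lower and 2080 higher at an unadjusted p under 0.05), while DESeq2 called 1099 lower, 7 of the class II genes among them, and 401 higher. The paper reports more genes in both directions with DESeq2 at these thresholds, so its calls were not reproduced exactly. The calling script was tested on simulated data. Standard errors were the fold change over the root of the F statistic. Alternatives were DESeq2 1.42.0, limma-voom 3.58.1, other scalings and filters, a replicate block and leaving out libraries.

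The class II genes and all context lists were chosen with earlier results of these data known. Named were all class II genes, the called members of each list or the 2 with the smallest p, the called neighbours on chromosome 17 and the 10 genes most correlated with the class II mean. Where further list genes are named (Ifngr1, Ifngr2, Irf4, Irf8, Jak2, Ctss, H2-K1, H2-D1, B2m, Ms4a1, Cd72, Ccr2, Xcr1, Itgax, Ly75, Prf1 and Il2rb), they were chosen after their values were seen. Some list members are not reported here. Positions and sequences came from GENCODE M21 on GRCm38, which may not be the authors' release. Columns of other comparisons were not used.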

Additional observations from a re-analysis of the deposited data

How the results depend on the processing

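All 10 mouse class II log2 fold changes stayed below 0 in every fit run. The number of these genes called lower, 6 as reported, was 5 to 8 under DESeq2, limma-voom, DESeq2 size factors, unscaled library totals, and when low genes were kept or those below a mean CPM of 1 removed. It was 10 with pan-NK scaling, where 9741 genes of the table were called instead of 1254 (9708 lower and 33 higher, against 882 and 372), the class II median was -1.85 and the all-gene median shifted to -0.86. Relative to all genes the class II median was -0.99 in both. DESeq2 called 2239 genes in all. At an adjusted p of 0.01, edgeR called 0 class II genes and 0 genes in all, and DESeq2, the tool and threshold of the study, called 7 class II genes. With a replicate block 10 class II genes and 2145 genes in all were called, but whether the numbers pair the samples is not known. Correlations of same-numbered deviations were 0.28, 0.35 and -0.19, and not every library correlated best with its own number. With 3 libraries a group, these values cannot decide whether the samples were paired. Leaving out 1 library gave 0 to 10 class II genes called, 0 to 2740 genes in all and a median of -1.37 to -0.79. Without both libraries that stood apart (chosen after seeing the data), the values were 10, 3391 and -1.48. The cause of these changes was not tested. The number of HLA genes called was 6 or 7 in all 14 alternatives. Depth limits statements on HLA-DRA, HLA-DPB1 and HLA-DOB, which had few counts.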
